A study of Mus musculus with 12 samples.

Results

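Primary hepatocytes of mice that carry human AHR were compared with those of wild type mice, both without TCDD. The comparison rested on 3 vehicle arrays of each genotype, 6 of the 12 arrays of the series, which were taken by their labelled strain and treatment and not by any measured value. It was described across 18193 genes. The wild type hepatocytes came from C57BL6/J mice, which have the mouse receptor. The other strain, on a B6.Cg background, carries the allele Ahrtm3.1Bra and the transgene Tg (Alb-cre, Ttr-AHR)1Ghp. It combines a floxed Ahr allele with a Cre recombinase under the albumin promoter and with human AHR under the transthyretin (Ttr) promoter, both active in hepatocytes. Liver cells that do not use the albumin promoter can therefore keep the mouse receptor. Both groups were cultured for 48 h in serum-free hepatocyte medium with 2.5% DMSO and 10 nM dexamethasone, a glucocorticoid, and then received DMSO as vehicle for 6 h. The remaining 6 arrays held hepatocytes of the same strains given 10 nM TCDD for 6 h in place of vehicle, and they entered only the estimate of spread and a second look at each gene. The design text gives 1 mouse per array. The labels give no day of preparation, and an effect of that day and one of genotype cannot be told apart. Age and sex are not given.

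AHR is a transcription factor of the bHLH-PAS family that is opened for DNA binding by a ligand such as dioxin. Without ligand it sits in the cytosol with HSP90 chaperones, and with ligand it enters the nucleus, pairs with ARNT and binds short DNA elements near genes of xenobiotic metabolism such as Cyp1a1, Cyp1a2, Cyp1b1 and Tiparp. In liver Cyp1a2 is expressed without added ligand, mainly in hepatocytes around the central vein, and the receptor contributes to that basal level.

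Expression is given as the intensity of 1 probe set per gene after each array was rescaled to the same trimmed mean. Differences are on the scale of log2(intensity + 16), human AHR minus wild type, which understates differences of dim genes. Hepatocyte markers were high in all vehicle arrays, with 11 of 11 measured markers above 100 in at least 1 array, and their summed intensity ran from 58065 to 72486 in human AHR and from 54862 to 66370 in wild type arrays. The vehicle arrays correlated across genes with r from 0.979 to 0.985 within a genotype and from 0.973 to 0.986 between genotypes. The Gapdh 3′ to 5′ ratio, a measure of RNA integrity, lay between 0.83 and 0.84 in human AHR and between 0.798 and 0.816 in wild type vehicle arrays, and its part in the results was not tested. Wild type vehicle replicate 2 showed the pattern of female cells (Xist at 3085, Eif2s3y at 4.7), as did wild type TCDD replicate 2, while the other arrays showed that of male cells, so sex was not balanced between the genotypes.

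Ahr, the targeted gene, read 224, 193 and 236 in human AHR arrays 1 to 3 and 261, 617 and 245 in the wild type arrays. All human AHR arrays lay below all wild type arrays, with wild type replicate 2 far above the other five. The log2 difference was -0.62 (95% confidence interval -1.28 to 0.04, limma adjusted p = 0.965), and -0.21 without wild type vehicle replicate 2. A dimmer probe set of Ahr differed by -0.30. The position of these probes relative to the floxed part is not stated, so they do not check the deletion. Arnt, which encodes the DNA-binding partner, differed by -0.24, with the groups overlapping. Of the 12 measured genes of the receptor complex and its coactivators, 6 lay above 0 and 6 below, with a median of 0.07. Alb and Ttr, whose promoters drive the transgenes, differed by 0.12 and 0.14, with overlapping groups for both.

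The genotypes differed beyond the adjusted threshold in 2 genes. Cyp1a2, a cytochrome P450 that oxidises caffeine, arylamines and estrogens, was about 5-fold higher in human AHR hepatocytes. Adi1, which encodes the acireductone dioxygenase of the methionine salvage pathway, was about 3.3-fold lower. These were 0.011% of all genes at a limma adjusted p under 0.05. At an unadjusted p under 0.05 limma found 775 genes (4.26%), fewer than the 909.7 that the threshold alone would give. Of these 482 were higher (2.65%) and 293 lower (1.61%) in human AHR cells. With arrays shifted to the same median the split was 287 higher and 446 lower. The median difference of all genes was 0.03, and 10017 of 18193 lay above 0 (8030 with arrays shifted to the same median). In the TCDD arrays the same threshold gave 295 genes higher (1.62%) and 457 lower (2.51%).

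Cyp1a2 read 3352, 3001 and 2572 in the human AHR vehicle arrays and 734, 429 and 611 in the wild type vehicle arrays. The lowest human AHR array was thus well above the highest wild type array. The means were 2975 ± 390.5 and 591 ± 154 (SD, n = 3 each). The log2 difference was 2.32 (standard error 0.27, 95% confidence interval 1.74 to 2.91, limma adjusted p = 0.00851). In the TCDD arrays, which did not enter that contrast, Cyp1a2 read 3426, 3348 and 2848 in human AHR and 753, 898 and 1799 in wild type TCDD arrays. Those genotypes were again separated, by 1.57, which did not pass the threshold (limma adjusted p = 0.218). The human AHR arrays thus lay between 2572 and 3426 with or without TCDD. The difference between the genotype contrasts under TCDD and vehicle was -0.76 (95% confidence interval of the difference -1.58 to 0.07, unadjusted p = 0.0688). The call of Cyp1a2 ended when human AHR vehicle replicate 1 or 2 was left out (adjusted p = 0.0523 and 0.0814) and without wild type vehicle replicate 2 or 3 (0.0619 and 0.0688), with log2 differences from 2.12 to 2.49 over all settings. The array holds 1 probe set for the gene.

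**Figure D1:**
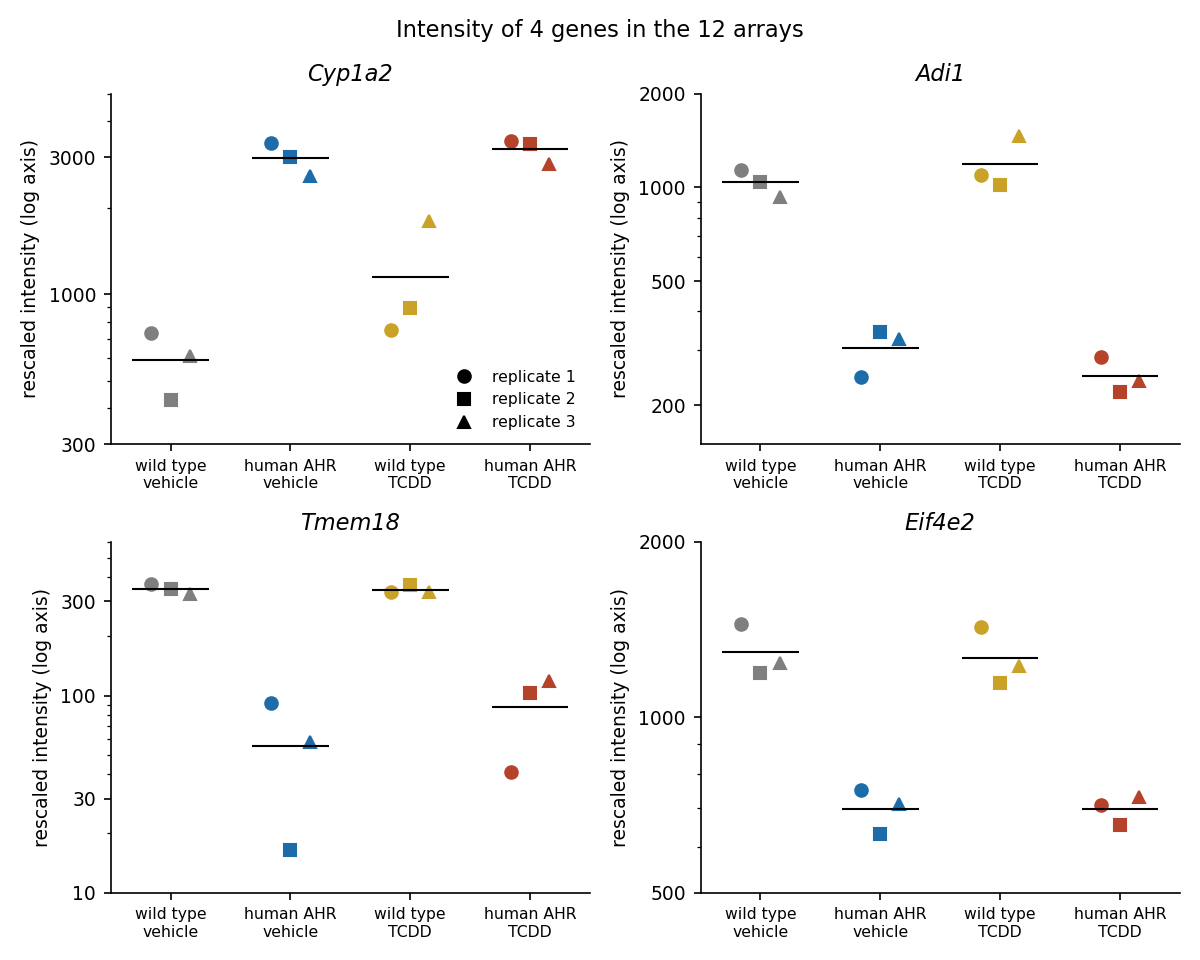
Rescaled intensity (log axis) of Cyp1a2, Adi1, Tmem18 and Eif4e2 in the 12 arrays, by genotype and treatment, with a marker shape for each replicate number and a black line at the mean of each group. In each panel all 6 human AHR arrays lie on one side of all 6 wild type arrays, above them for Cyp1a2 and below them for the other genes.

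The promoter windows of Cyp1a2 and of its neighbour in the same family, Cyp1a1, are shown because the first of the pair was called and the second is the best known AHR target. The sequences are from RefSeq on GRCm38.p6, from 250 bases before to 50 after the gene start, in the direction of transcription, with the letters of the AHR core motif GCGTG (or CACGC on the other strand) in capitals.
Cyp1a2, chr9:57683606-57683905, minus strand: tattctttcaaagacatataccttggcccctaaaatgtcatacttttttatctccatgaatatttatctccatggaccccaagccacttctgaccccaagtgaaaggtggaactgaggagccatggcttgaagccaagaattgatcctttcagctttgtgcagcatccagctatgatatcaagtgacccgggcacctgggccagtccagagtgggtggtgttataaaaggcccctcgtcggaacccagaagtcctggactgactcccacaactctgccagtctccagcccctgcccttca
Cyp1a1, chr9:57697363-57697662, plus strand: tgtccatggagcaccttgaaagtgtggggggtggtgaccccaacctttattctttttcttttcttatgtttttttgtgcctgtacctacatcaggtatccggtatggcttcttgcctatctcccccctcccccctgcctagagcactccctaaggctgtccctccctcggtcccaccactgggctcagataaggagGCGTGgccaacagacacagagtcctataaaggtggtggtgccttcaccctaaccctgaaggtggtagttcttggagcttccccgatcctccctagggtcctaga
The Cyp1a1 window held 1 match, 54 bases before the gene start. The Cyp1a2 window held 0, which says only that these letters are not in this window. The motif, searched on both strands, was present in 32.4% of 32851 promoter windows of this length. By gene it was present in 35.2% of the 27025 genes that have a window and in 7 of the 15 AHR target genes that have one.

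Among the 19 measured AHR target genes, 10 lay above 0 and 9 below, with a median of 0.27 against 0.03 over all genes. The median was 0.07 without human AHR vehicle replicate 2 and 0.13 to 0.14 without any one of the wild type vehicle arrays. At an unadjusted p under 0.05, 3 were higher and 0 lower, beside 2.65% and 1.61% of all genes, and 1 was higher without human AHR vehicle replicate 2. All human AHR arrays lay above all wild type arrays in 4 of them, where this was so for 6.24% of all genes, and below in 0, against 4.43%. The direction of most targets was therefore not settled, and Cyp1a2 alone passed over all genes. Cyp1a1, the most inducible cytochrome of the family, read 81.9, 63.0 and 60.5 in human AHR and 25.3, 24.0 and 18.5 in wild type arrays. The groups did not overlap, with a log2 difference of 1.13, but the interval reached from -0.76 to 3.01. The fit shares its spread over the groups, and Cyp1a1 varied most in the wild type TCDD arrays, at 125, 2518 and 64.9. From the 6 vehicle arrays alone the adjusted p was 0.857.

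Ugdh, which makes the UDP-glucuronic acid used for glucuronidation, read 3223, 5920 and 5070 in human AHR and 3185, 3141 and 3120 in wild type arrays. Replicates 2 and 3 were high and replicate 1 was close to the wild type level, and the log2 difference was 0.54 (limma unadjusted p = 0.0149), or 0.36 without human AHR vehicle replicate 2. Pmm1, a phosphomannomutase, differed by 0.39 with groups that did not overlap (unadjusted p = 0.0364). Tiparp, an ADP-ribosyltransferase that feeds back on the receptor, read 1327, 1403 and 1342 in human AHR and 1402, 911 and 1098 in wild type arrays. The groups overlapped, and the difference of 0.27 had an interval from -0.06 to 0.61, while its other probe sets stood at 0.13 and 0.47. Cyp1b1, at 2.0 to 4.0 in human AHR and 1.0 to 6.6 in wild type arrays, and Ahrr, the receptor's repressor, at 0.6 to 5.2 and 1.7 to 2.9, were near the bottom of the scale. Nqo1, a quinone reductase, differed by -0.05 (interval -0.60 to 0.50) Xdh, which makes uric acid, by -0.01 (interval -0.50 to 0.48), and Aldh3a1, an aldehyde dehydrogenase, by -0.03. Nqo1, Xdh, Ahrr, Cyp1b1 and Aldh3a1 changed sign when some arrays were left out.

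**Figure D2:**
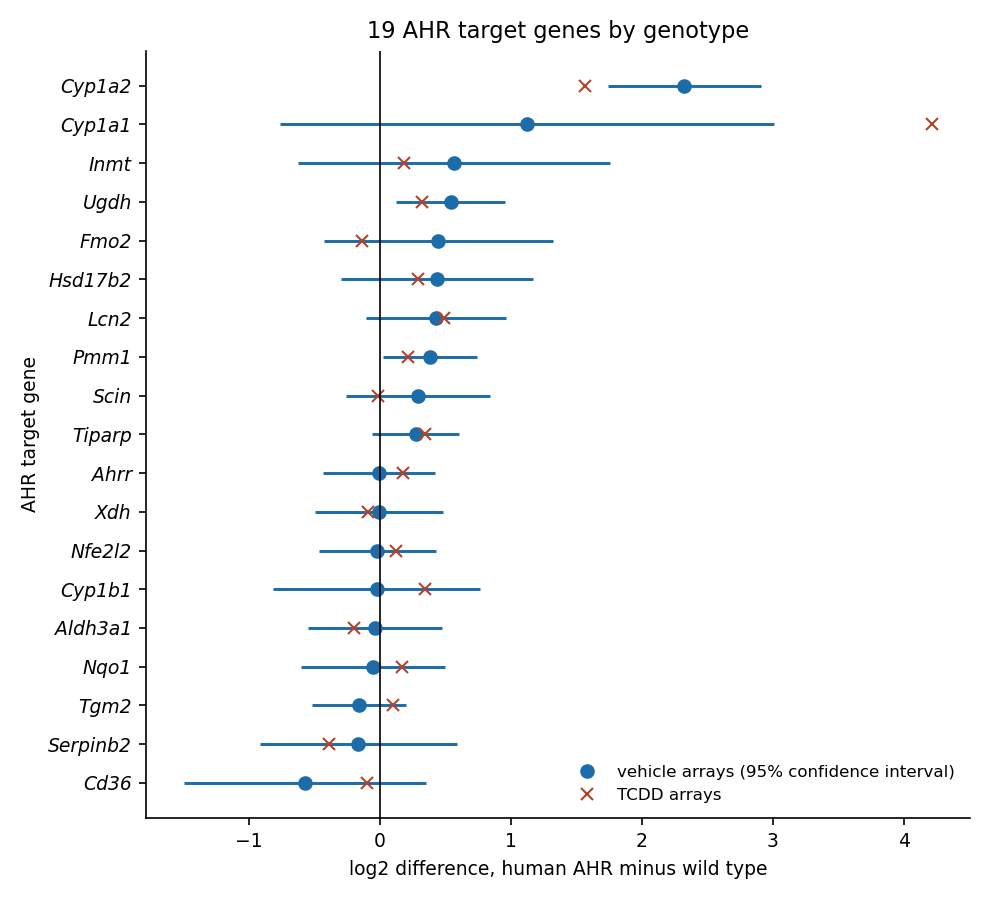
Log2 difference between human AHR and wild type arrays for the 19 measured AHR target genes, in vehicle arrays (points with 95% confidence intervals) and in TCDD arrays (crosses). The interval of Cyp1a2 in vehicle arrays lies from 1.74 to 2.91, while those of most other targets include 0.

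Adi1 read 246, 344 and 327 in the human AHR vehicle arrays and 1137, 1044 and 935 in the wild type vehicle arrays. The means were 306 ± 52.1 and 1038 ± 101.3 (SD, n = 3 each), a log2 difference of -1.72 (standard error 0.17, 95% confidence interval -2.09 to -1.36, limma adjusted p = 0.00245). It was the 1 gene called between the genotypes in the TCDD arrays (0.0055% of genes), at -2.18 (adjusted p = 0.000142). The 6 human AHR arrays lay between 220 and 344 and the 6 wild type arrays between 935 and 1459. The probe sets of Adi1 did not go together. The one used here is of the type that shares probes with other transcripts. Another differed by -3.74, from a mean of 906 in wild type to 57.7 in human AHR arrays. The remaining one, also of the shared type, differed by 0.80 in the opposite direction, with means of 900 in human AHR against 495 in wild type arrays (unadjusted p = 0.0187). The probe set that is not of the shared type thus showed the largest difference of them.

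Adi1 lies on chromosome 12 at -6.82 Mb from Ahr, the locus that was altered in this strain, where negative distances run toward the start of the chromosome. Within 10 Mb of Ahr 72 genes were measured, of which 3 were lower (4.17%) and 4 higher (5.56%) at an unadjusted p under 0.05, against 1.61% and 2.65% of all genes, with a median of 0.07. The lower genes were Adi1, Tmem18 and Acp1. Tmem18, a membrane protein of the nuclear envelope at -4.91 Mb from Ahr, read 91.6, 16.5 and 57.9 in human AHR and 368, 349 and 328 in wild type vehicle arrays. The groups were far apart, with a log2 difference of -2.51 (95% confidence interval -3.33 to -1.70, limma adjusted p = 0.067), and it was called in 5 of 24 other settings. Acp1, a low molecular weight phosphatase at -4.6 Mb from Ahr, differed by -0.24 on its brightest probe set. Its other 5 probe sets ran from -2.03 to 0.28. The higher genes were Bzw2, 0.59 Mb from Ahr, at 0.39, and the RIKEN transcripts 4933409F18Rik, 5430401H09Rik and 4933406C10Rik. Of these, 4933409F18Rik and 4933406C10Rik had overlapping groups and means below the offset of 16 in both genotypes. In the TCDD arrays Bzw2 stood at 0.13. There 1 of the 72 genes was higher and 6 lower at an unadjusted p under 0.05, beside 1.62% and 2.51% of all genes.

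From 10 to 20 Mb from Ahr, 4 of 61 genes were lower (6.56%) and 0 higher, against 1.61% and 2.65% of all genes. These were Dtd2, Heatr5a, Arhgap5 and Ap4s1, which lie 16.18 to 17.01 Mb from Ahr. Dtd2, a deacylase that edits mischarged tRNA, read 10.5, 39.3 and 45.7 in human AHR and 103, 110 and 78.3 in wild type vehicle arrays, a log2 difference of -1.32 (unadjusted p = 0.000488). Heatr5a stood at -0.80, Arhgap5 at -0.54, and Ap4s1, a subunit of an adaptor complex of vesicle transport, at -0.53. Other, dimmer probe sets differed less, by -0.18 and -0.05 for Dtd2, -0.04 for Heatr5a and from -0.33 to 0.01 for Arhgap5. None of these 4 genes was called over all genes. In the rest of chromosome 12, with 488 genes, 9 were lower (1.84%) and 13 higher (2.66%), shares close to those of all genes. The lowest of these was Tcl1b3, 69.69 Mb from Ahr, at -1.79. Within 10 Mb of Alb, 2 of 123 genes were lower (Parm1 at -0.88 and Tmem150cos at -0.30) and 0 higher, and within 10 Mb of Ttr, 0 of 63 were lower and 2 higher (Dsc2 at 0.38 and Gm7788 at 0.64). Parm1 had means of 4.3 in human AHR and 21.2 in wild type arrays, near the offset of 16. Its other probe set stood at 0.03, and that of Dsc2 at 0.14. Where the transgenes lie in the genome is not stated in the labels.

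**Figure D3:**
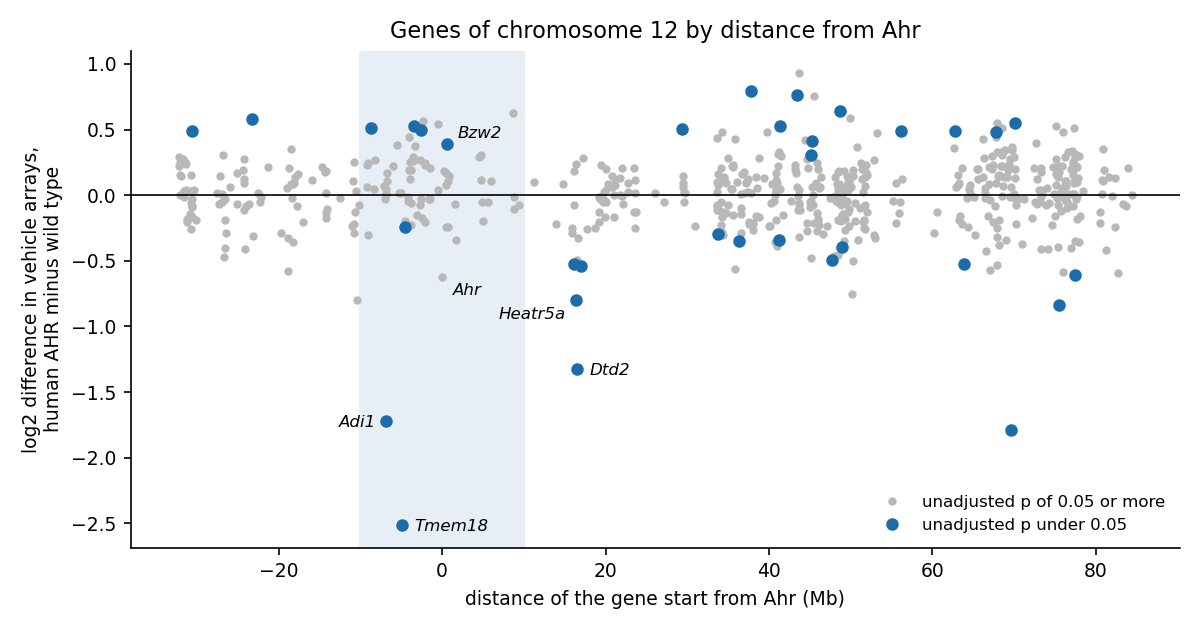
Log2 difference in vehicle arrays of each gene of chromosome 12 against the distance of its start from that of Ahr, with the 10 Mb on either side shaded and genes with an unadjusted p under 0.05 in blue. Adi1 and Tmem18 lie inside the shaded window, and Dtd2 and Heatr5a lie about 16 Mb from Ahr on the other side.

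A further group of lower genes lay on chromosome 1. Eif4e2, a cap-binding protein that represses translation, read 751, 630 and 710 in human AHR and 1448, 1193 and 1242 in wild type vehicle arrays. The groups were well apart, at -0.88 (standard error 0.13, limma adjusted p = 0.060), with -0.84 in the TCDD arrays. It was called in 5 of 24 other settings. Its other 4 probe sets ran from -0.80 to -0.26. Within 1 Mb of Eif4e2, 28 other genes were measured. At an unadjusted p under 0.05, 4 of them were lower (14.3%) and 2 higher (7.14%), against 1.61% and 2.65% of all genes. The lower genes were Gigyf2, whose protein binds that of Eif4e2, at -0.61, Atg16l1, which conjugates LC3 in autophagy, at -0.70 (adjusted p = 0.221), Dgkd, a diacylglycerol kinase, at -0.49, and Usp40, a ubiquitin protease, at -0.87, and the higher ones were Alpi at 0.53 and Efhd1 at 0.61. Other, dimmer probe sets of the lower genes ran from -0.78 to 0.01 for Gigyf2, from -0.28 to 0.35 for Dgkd and from -0.58 to -0.13 for Usp40. That of Atg16l1 stood at -0.125. In the TCDD arrays the lower genes stayed below 0, from -1.09 for Usp40 to -0.71 for Dgkd. Alpi and Efhd1 changed sign there, to -0.21 and -0.17. The window was chosen around Eif4e2 after its values were seen.

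Over all 12 arrays, vehicle and TCDD together, each human AHR array lay below each wild type array in 43 genes (0.236%) and above in 34 (0.187%). Of the 43, 6 lay on chromosome 12 among its 622 genes, and all 6 were within 20 Mb of Ahr: Adi1, Tmem18, Acp1, Dtd2, Heatr5a and Arhgap5. Another 6 lay on chromosome 1, of which Eif4e2, Gigyf2, Atg16l1, Dgkd and Usp40 were the neighbours above. Outside these regions they included Oat, Cyp2c37 and Asl, 3 genes of hepatocyte metabolism, and the 34 higher genes included Cyp1a2, Slc16a3 and Vsig4. The vehicle and TCDD arrays of one genotype may not be independent, since same-numbered human AHR arrays deviated together from their group means (r from 0.19 to 0.27 across genes, against at most -0.04 between other numbers). Deviations from a group mean sum to 0 within the group, so the values between other numbers are not an independent baseline.

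Apart from Cyp1a2 and Adi1, the largest separated differences were not called and are given as values. In human AHR arrays Slc16a3, a lactate exporter, read 378, 311 and 426, against 186, 125 and 138 in wild type arrays. The groups did not overlap in vehicle or in TCDD arrays, with 1.23 and 1.36 on the log2 scale. Hsd17b6, a steroid oxidoreductase, stood at 1.03, Ptpn14, a phosphatase of the Hippo pathway, at 0.96, and Mug1, a secreted protease inhibitor, at 0.79. Socs3, an inhibitor of cytokine signalling, read 66.9, 206 and 124 against 66.0, 42.9 and 38.9, a difference of 1.09 with replicate 1 just above wild type. Hsd3b5, a steroid dehydrogenase of male mouse liver, read 82.2, 129 and 237 against 36.9, 1.0 and 36.6. The female-pattern array was the lowest, and the difference was 2.08, or 1.54 without it. On the lower side, Aldh1a1, which makes retinoic acid, read 947, 578 and 871 against 1105, 1755 and 1367, a difference of -0.81. Fas, a death receptor, stood at -0.92 and Bicc1, an RNA-binding protein, at -1.15, and for both wild type replicate 2 was the highest array.

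Genes of Kupffer cells and macrophages lay mostly above 0, with 12 of 21 measured markers past an unadjusted p of 0.05 (57.1%, against 2.65% of all genes), 0 past it in the other direction and 0 called over all genes. Of the 21, 19 stood higher in human AHR cultures, and the median was 1.13, the largest of the 36 gene lists. Below 0 were Timd4, a receptor for dying cells that read 0.4 to 2.9 in all vehicle arrays (-0.03), and Msr1, a scavenger receptor (-0.04), and both changed sign when some arrays were left out. The summed marker intensity was 2508, 5006 and 6692 in human AHR arrays 1 to 3 and 2596, 3914 and 2875 in the wild type arrays. Human AHR replicates 2 and 3 were high and replicate 1 was the lowest of all, so the groups overlapped, and 2 of the 21 genes had groups that did not (9.52%, against 6.24% of all genes), Vsig4 and Marco. In cultures of mixed cells, fewer cells of a type and less RNA per cell cannot be told apart.

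C1qb, a chain of complement C1q made by macrophages, read 30.6, 186 and 357 in human AHR and 6.8, 1.6 and 51.4 in wild type arrays. Wild type replicate 3 exceeded human AHR replicate 1, and the log2 difference was 2.34 (95% confidence interval 0.61 to 4.07). Its partner chains C1qa and C1qc stood at 2.25 and 2.03. Vsig4, a complement receptor of Kupffer cells, read 14.8, 50.8 and 81.3 against 2.5, 4.2 and 6.3, with groups that did not overlap, a difference of 1.53. Clec4f, a lectin of Kupffer cells, read 7.6, 34.7 and 64.9 against 4.1, 8.4 and 2.7, a difference of 1.13 (0.72 without human AHR vehicle replicate 3) with replicate 1 inside the wild type range. Ctss, a lysosomal protease of antigen-presenting cells, and Lyz2, lysozyme, stood at 2.15 and 1.76. Human AHR replicates 2 and 3 were also high in the TCDD arrays, where the sums were 2332, 4820 and 6294 in human AHR and 2470, 3498 and 4617 in wild type cells and the median difference was 1.16. The count of 12 markers fell to 2 without human AHR vehicle replicate 3, to 4 without its replicate 2 or without wild type vehicle replicate 1 and to 6 without wild type vehicle replicate 2, and it was 16 without human AHR vehicle replicate 1. The median stayed between 0.73 and 1.67 when 1 vehicle array was left out. Ugdh, Socs3, Hmox1 and Ndrg1 also had human AHR replicate 1 lowest and close to wild type, and the part of macrophage RNA in their values was not tested.

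**Figure D4:**
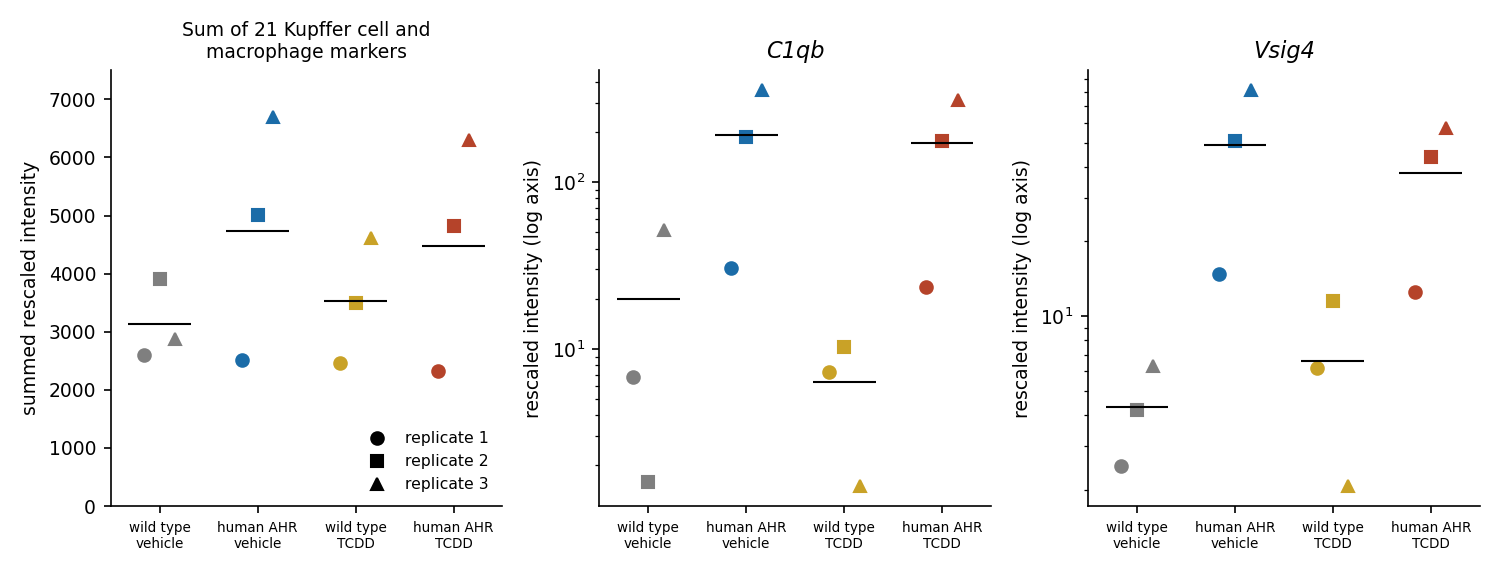
Summed rescaled intensity of 21 Kupffer cell and macrophage markers (linear axis from 0) and the intensity of C1qb and Vsig4 (log axes) in the 12 arrays, with a marker shape for each replicate number and a black line at the group mean. Human AHR replicates 2 and 3 are high under vehicle and TCDD, while replicate 1 has sums of 2508 and 2332, close to the lowest wild type arrays.

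For markers of other cells the counts were lower. Of 22 stellate cell and fibroblast markers 2 were higher (9.09%) at an unadjusted p under 0.05, where 2.65% of all genes were higher and 1.61% lower. These were Reln, a secreted matrix protein, at 0.71 and Tagln, a smooth muscle protein, at 0.66. Tagln had means of 14.7 in human AHR and 2.9 in wild type arrays, both below the offset of 16. In the TCDD arrays Reln stood at 0.93 and Tagln at -0.02. The list median was 0.28, which was 0.08 without human AHR vehicle replicate 3. Of 23 endothelial, 13 neutrophil and 11 hepatocyte markers 0 passed in either direction, with medians of 0.14, 0.18 and 0.07, of which those of the endothelial and hepatocyte lists turned to -0.04 and -0.01 without human AHR vehicle replicate 3. Of 11 cholangiocyte markers 8 lay above 0, with a median of 0.06 (-0.00 to 0.10 when 1 vehicle array was left out). Against that direction Cd24a, a surface glycoprotein, was lower at -0.78, or -0.43 without wild type vehicle replicate 3. Among 19 lymphocyte and NK cell markers 13 lay above 0, and Cd52, a surface glycopeptide, was higher at 0.87. Among 8 erythroid markers 5 lay above 0, with a median of 0.10 (-0.03 to 0.19 when 1 vehicle array was left out). Against that direction Slc4a1, an anion exchanger, was lower at -0.60. The summed intensities of the stellate, endothelial, cholangiocyte, lymphocyte and neutrophil lists overlapped between the groups. Those of the erythroid list did not (1561 to 1693 in human AHR and 1754 to 1785 in wild type arrays), although 5 of its 8 members lay above 0. Such sums rest on few bright genes. Members over 100 in any vehicle array numbered 3, 1, 5, 2 and 1 in the first lists, in that order, and 2 in the erythroid list.

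Apart from Cyp1a2, no member of a metabolic list was called over all genes, and the intervals of single genes were wide. Of 20 genes of cholesterol synthesis, 18 lay below 0 with a median of -0.30, and 2 were lower at an unadjusted p under 0.05, beside 1.61% of all genes. That count was 6 without wild type vehicle replicate 1 and 0 without human AHR vehicle replicate 2 or 3. It was 1 without wild type vehicle replicate 2 or 3 or when 1 of 4 TCDD arrays was left out, and the median ran from -0.48 to -0.21. Mvd, the mevalonate decarboxylase, read 114, 41.8 and 49.0 in human AHR and 104, 113 and 126 in wild type arrays, so that replicate 1 lay with the wild type arrays (-0.72). Hsd17b7, which reduces sterol intermediates, stood at -0.38, and at -0.18 without wild type vehicle replicate 2. The list median was 0.01 in the TCDD arrays. Of 29 genes of fatty acid oxidation and PPARA targets, 23 lay below 0 with a median of -0.20. At an unadjusted p under 0.05, Cyp4a14 and Hadh were lower (6.9%, beside 1.61% of all genes). That count of 2 was 0 without wild type vehicle replicate 2, 1 without human AHR vehicle replicate 2 and 4 without wild type vehicle replicate 1. Cyp4a14, a fatty acid hydroxylase, read 41.1, 33.9 and 38.0 against 109, 294 and 62.2. The female-pattern wild type array was the highest, and the difference was -1.43, or -0.88 without it. Hadh, a mitochondrial dehydrogenase of beta-oxidation, stood at -0.46.

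In bile acid synthesis and transport, Baat, which conjugates bile acids, and Nr1h4, the bile acid receptor FXR, were lower at -1.12 and -0.76, and at -0.70 and -0.48 without wild type vehicle replicate 2, with a median of -0.02 over 28 genes that became 0.15 without that array. Baat had means of 17.0 in human AHR and 61.9 in wild type arrays. Its other, dimmer probe set stood at 0.01, with means of 7.8 and 7.9. In the urea cycle and amino acid catabolism, Oat, an ornithine aminotransferase of pericentral hepatocytes, read 716, 720 and 607 in human AHR and 1010, 1026 and 914 in wild type arrays. The groups did not overlap there or in the TCDD arrays, with -0.52 and -0.74. Asl, which cleaves argininosuccinate, stood at -0.29 and Hal, a histidine ammonia lyase, at 0.69, and the list median was 0.01 over 29 genes. Of 28 lipogenic genes 0 were lower and 1 higher at an unadjusted p under 0.05 (3.57%, beside 2.65% of all genes). The higher one was Cidea, a lipid droplet protein, at 0.67. Pparg, an adipogenic receptor, stood at -1.04 (interval -2.11 to 0.03), which was -0.58 without human AHR vehicle replicate 2 and -1.57 without replicate 1. Of 24 genes of glucose metabolism Igfbp1, an IGF-binding protein, stood at 1.20 with overlapping groups, and at 0.68 without wild type vehicle replicate 3.

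Among 35 cytochromes of the Cyp2, Cyp3 and Cyp4 families, 24 lay above 0 with a median of 0.20 (-0.04 in the TCDD arrays). At an unadjusted p under 0.05, 1 was higher (2.86%) and 2 lower (5.71%), beside 2.65% and 1.61% of all genes. Cyp2c37, which oxidises arachidonic acid, read 381, 451 and 419 against 870, 631 and 522, with groups that did not overlap there or in the TCDD arrays (-0.64 and -0.96). Cyp4f14, a leukotriene hydroxylase, stood at 0.71, or 0.46 without human AHR vehicle replicate 3. Cyp1a2 is also a pericentral gene, and of all 19 measured pericentral genes 7 lay above 0, with a median of -0.04 and with Oat and Cyp2c37 among the lower ones. The 18 periportal genes had a median of 0.07. Of 33 conjugation enzymes 23 lay below 0, with a median of -0.15, which was -0.00 without wild type vehicle replicate 2. Nnmt, which methylates nicotinamide, stood at -0.59, and Sult5a1, a sulfotransferase, at 1.02. The 21 NRF2 targets had a median of 0.13, or -0.02 without wild type vehicle replicate 3. Of them 3 were higher at an unadjusted p under 0.05 (14.3%, beside 2.65% of all genes). These were Slc7a11, a cystine transporter, at 0.59, Ugdh, and Gsr, a glutathione reductase, at 0.26. Hmox1, the heme oxygenase, read 842, 2294 and 2162 against 933, 1064 and 587, with replicate 1 inside the wild type range.

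In several lists of stress and regulatory genes most members lay to one side, where 10017 of 18193 genes lay above 0 and 8176 below. Of 29 genes of the unfolded protein response, 27 lay above 0 with a median of 0.28, which was -0.04 in the TCDD arrays, and 2 were higher at an unadjusted p under 0.05, beside 2.65% of all genes. That count was 7 without wild type TCDD replicate 2 and 5 without wild type TCDD replicate 3, which enter only the estimate of spread. Calr, a chaperone of the endoplasmic reticulum, read 5265, 4806 and 4819 against 3962, 3658 and 3872, without overlap, a difference of 0.37. Ern1, the sensor IRE1, stood at 0.55, and at 0.16 in the TCDD arrays. Its other, dimmer probe sets ran from 0.001 to 0.827 in vehicle arrays. Of 20 HIF1 targets, which share the partner ARNT with AHR, 16 lay above 0 with a median of 0.24 (0.20 in the TCDD arrays), and 2 were higher at an unadjusted p under 0.05. The count was 1 without human AHR vehicle replicate 3, 4 without human AHR vehicle replicate 1 or without the vehicle or TCDD array of wild type replicate 2, and 5 without wild type TCDD replicate 3. Ndrg1, a stress-induced gene, read 1356, 2535 and 2394 against 1234, 1106 and 952, a difference of 0.88, and its other 4 probe sets ran from 0.85 to 0.98. P4ha1, a collagen prolyl hydroxylase, stood at 0.63. Of 26 immediate early genes 21 lay above 0 with a median of 0.26, which was 0.12 without wild type vehicle replicate 2. Egr1, a zinc finger factor, stood at 0.73 and was the 1 gene higher at an unadjusted p under 0.05. That count was 0 without human AHR vehicle replicate 2 or wild type vehicle replicate 2 or 3, 2 without human AHR vehicle replicate 1, 5 or 6 without wild type TCDD replicate 3 or 2, and 7 without wild type vehicle replicate 1. Of 20 clock genes 15 lay above 0 with a median of 0.15. Ciart, a repressor of the clock, stood at 1.15 in vehicle (0.76 without wild type vehicle replicate 2) and -0.35 in TCDD arrays, and the difference between these had an unadjusted p of 0.0165 and was not called. Of 27 oxidative phosphorylation genes 24 lay below 0, with a median of -0.08, which was -0.04 without human AHR vehicle replicate 2, and with Ndufb3, a complex I subunit, at -0.27.

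In the other lists the medians were small. They were 0.14 for acute phase proteins, 0.11 for secreted hepatocyte proteins (Cfb, a complement factor, at 0.37 and Plg, plasminogen, at 0.64, or 0.27 without wild type vehicle replicate 3), -0.13 for interferon-stimulated genes (0.03 without wild type vehicle replicate 2) and 0.27 for the interferon-inducible p200 family, which ran from 0.03 to 0.55 when 1 vehicle array was left out. Sex-biased liver genes had a median of 0.31, and 0.20 without wild type vehicle replicate 2. Culture-induced genes stood at -0.00. Cell cycle genes (0.02), proteasome subunits (0.04), cytosolic ribosomal proteins (0.03), liver transcription factors (0.05), the glucose list (0.05) and the urea cycle list (0.01) had medians that turned negative with arrays shifted to the same median.

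**Figure D5:**
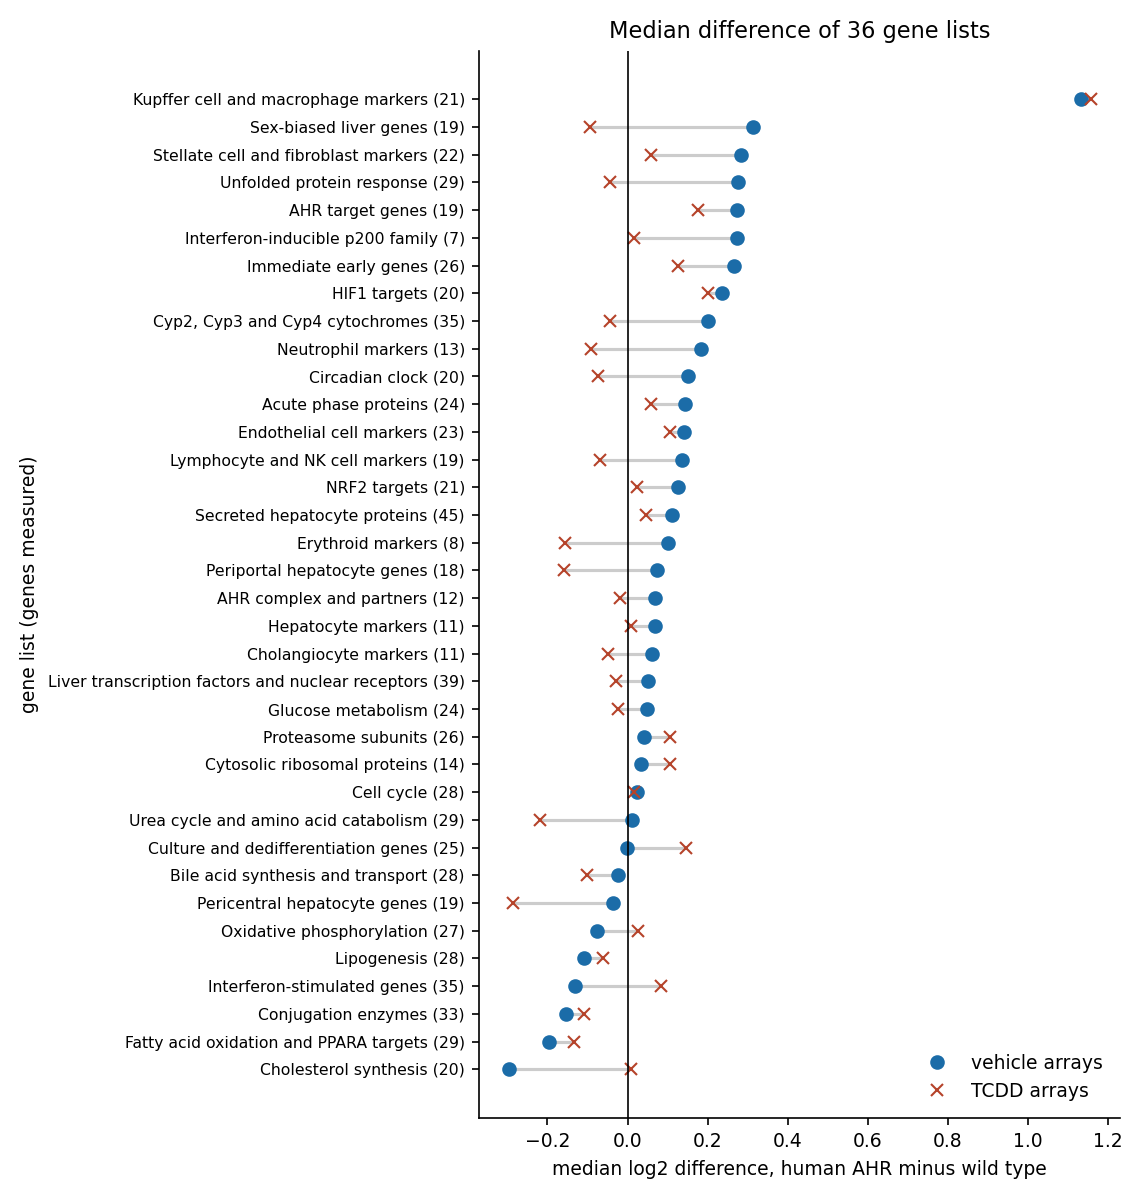
Median log2 difference between human AHR and wild type of each of the 36 gene lists, with the number of genes measured in brackets, in vehicle arrays (points) and TCDD arrays (crosses). Kupffer cell and macrophage markers stand apart at 1.13 and 1.16, and the other medians in vehicle arrays lie between -0.30 and 0.31.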

How the data were processed

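RNA of 12 hepatocyte cultures was measured on Affymetrix mouse arrays with 45101 probe sets. The intensity values are the authors' deposited ones, linear and at least 0. The submitters' processing notes name PLIER and Affymetrix Expression Console 1.1. However, the mean after trimming 2% at each end was 500 for 3 arrays (wild type with TCDD) and 150 for the other 9, as global scaling gives, so the algorithm behind the values is unsure. All arrays were rescaled to 150, which leaves the 6 vehicle arrays as deposited. After removal of 64 control probe sets, 34945 of 45037 named 1 gene symbol in the array annotation, 932 several and 9160 none. For each of 18193 genes the probe set of highest mean intensity was used.

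Values were log2(intensity + 16). limma 3.58.1 in R 4.3.3 fitted 1 mean per group over 12 arrays (8 residual degrees of freedom, eBayes with an intensity trend). Tests were two-sided, with Benjamini-Hochberg adjustment over all genes and a threshold of 0.05. Lists (36, with 830 of 938 entries measured) were described by counts and medians. Gene positions relative to each other came from RefSeq (GRCm38.p6). Members, lists and comparisons were chosen with earlier results of these data known. Genes were named by a rule: all called genes, the 12 largest separated differences per direction with an unadjusted p under 0.05 and a mean of at least 100, the AHR targets with Ahr, Arnt, Alb and Ttr, the 5 members of a list and the 6 neighbours within 10 Mb of Ahr, Alb or Ttr with the smallest p. Not all of these are printed. Others (among them Atg16l1, Gigyf2, Dgkd, Dtd2, Arhgap5, Ap4s1, Timd4, Msr1, Barhl1, Plek and Cyp2b10) were named after their values were seen. The number of arrays limits the precision. p-values measure the spread between these cultures. The design text gives 1 mouse per array, but same-numbered vehicle and TCDD arrays correlated in their deviations (r from 0.19 to 0.27 in human AHR and from 0.05 to 0.51 in wild type), so some vehicle and TCDD arrays may not be independent, which the fit over 12 arrays assumes. Alternatives covered the offset, scaling, filter, fit, probe sets, sex, a replicate term, SAM over 20 relabellings and leaving out each array. Same-numbered arrays of the genotypes were not taken as pairs (r from -0.18 to 0.05).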

Additional observations from a re-analysis of the deposited data

How the results depend on the processing

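The number of genes called, 2 in the reported fit, was 4 with an offset of 50 and with array weights (Eif4e2 and Tmem18 were added), and 6 when the genotypes were averaged over vehicle and TCDD arrays (adding Atg16l1 and Dtd2 as well), a fit chosen after seeing the data. It ran from 1 to 3 when 1 array was left out. With the replicate number as a block over all 12 arrays, or as a random block within genotype, it was 3 (adding Eif4e2), and the block changed no other call. Without both Xist-high arrays it was 3, with Cyp2b10, a cytochrome of female mouse liver, at 1.52 (adjusted p = 0.0127). SAM on the 6 vehicle arrays called 2 genes, Cyp1a2 and Barhl1, and not Adi1. Barhl1 read 18.7, 22.6 and 22.8 in human AHR and 1.0, 2.0 and 1.5 in wild type vehicle arrays. In the TCDD arrays Barhl1 read 20.4, 12.9 and 1.1 in human AHR and 20.2, 1.3 and 13.6 in wild type cells. The log2 difference was 1.09 in vehicle and -0.01 in TCDD arrays. The other, dimmer probe set of Barhl1 went the opposite way in vehicle arrays, at -0.34, with means of 3.3 in human AHR and 9.3 in wild type. The remaining settings gave 2 or 3. Adi1 was called in 24 of 24 limma settings and Cyp1a2 in 20 of 24. Plek was called without human AHR vehicle replicate 1 (1.36, adjusted p = 0.0305).

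Uncalled genes close to 0 changed sign in places, and the cause was not tested. Cyp1b1 stood at 0.134 without an offset, 0.009 with array weights, 0.077 with the mean over probe sets and 0.083 without both Xist-high arrays. Ahrr stood at 0.015 with array weights. Xdh stood at 0.043 with array weights and 0.164 without both Xist-high arrays, and Msr1 at 0.057 without the latter. When 1 array was left out, the values ran from -0.123 to 0.083 for Cyp1b1, -0.121 to 0.056 for Ahrr, -0.134 to 0.033 for Nqo1, -0.211 to 0.164 for Xdh, -0.253 to 0.158 for Aldh3a1, -0.070 to 0.032 for Timd4 and -0.149 to 0.057 for Msr1. Genes with intensities near the offset of 16 have differences that depend on it: the median of the Kupffer cell and macrophage markers was 2.23 without an offset and 0.65 with an offset of 50.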

Other observations

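The array also held 10092 probe sets that name no gene or several. Among them 449 had an unadjusted p under 0.05 and 0 were called by limma, the smallest adjusted p being 0.75. Of the 775 genes with an unadjusted p under 0.05 in vehicle arrays, 61.9% differed in the same direction in the TCDD arrays, beside 53.3% of all genes. The genotype difference itself changed with treatment in 0 genes by limma, with 573 at an unadjusted p under 0.05.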
